A study of Rattus norvegicus with 11 samples.

Results

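The apoptosome and caspase genes followed here are 7 rat genes: Apaf1, Casp2, Casp6, Casp8, Casp9, Diablo and Endog. They were taken by their symbol in the platform annotation and have 11 of the 15923 probe sets of the array, with 2 probe sets each for Apaf1 and Casp2, 3 for Casp9 and 1 for each of the other genes. The 11 arrays carry RNA of REF52 cells, an established line of rat embryo fibroblasts. All cultures were raised in medium with 10% serum, kept at 0.25% serum for 48 hours and infected with an adenovirus that expresses E2F1, a cell cycle transcription factor, or with a control adenovirus labelled CMV. The infected cells then received serum with LY294002, an inhibitor of phosphoinositide 3-kinase, or deprivation medium, or serum alone. The 6 groups are E2F1 virus with LY294002, control virus with LY294002, E2F1 virus deprived, control virus deprived, E2F1 virus in serum and control virus in serum, with 2 arrays in each group but the deprived control virus cells, for which there is 1 array. Every group therefore carries an adenovirus and went through the same earlier deprivation. The labels give no LY294002 dose, no harvest time and no virus dose, and nothing in them says if replicate arrays stand for separate cultures; the p-values therefore measure array-to-array spread, possibly technical, and no more. The series title frames the study as one of an E2F1-dependent program that sets the balance of proliferation and death.

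In the mitochondrial route to apoptosis, cytochrome c leaves the mitochondria and binds Apaf1, which assembles into the apoptosome and recruits the initiator caspase 9. Caspase 9 then cleaves executioner caspases, a class to which caspase 6 belongs. Diablo, also called Smac, leaves the mitochondria as well and blocks the inhibitor of apoptosis proteins, while endonuclease G, the product of Endog, moves to the nucleus and cuts DNA. Caspase 8 starts the route from death receptors, and caspase 2 is an initiator that can be activated on the PIDDosome complex. In human and mouse cells Apaf1 and several caspase genes have been described as targets of E2F1. Caspases are made as inactive precursors, so a transcript level does not measure their activity.

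Of the 7 genes, 6 were found in the RefSeq promoter table (build GRCr8), which holds 250 bases before and 50 after a gene's start. For Casp2, Casp6 and Casp9 this start lies inside the annotated gene. Of their 250 bases only 158, 151 and 83 precede the gene's annotated 5′ end. The 250 bases before the start used in the table were searched on both strands for 4 words of the E2F consensus. These were TTCCCGC as one word, TTCGCGC as the next, TTGCCGC as the third and lastly TTGGCGC. One of the 6 member promoters, that of Casp2, held a word, against 7.59% of all 33469 promoters in the table. The single match, TTCCCGC, lies 226 to 220 bases before the start used in the table and overlaps no other match. The Endog promoter is shown because Endog is the only member whose transcript passed the test, the Casp2 promoter because it holds the match, and the Apaf1 promoter because Apaf1 is the scaffold of the apoptosome. Capitals mark the match, and each stretch is written 5′ to 3′. The Casp2 stretch ends at the annotated 5′ end of the gene, so it shows 158 of the 250 bases searched. The position of 226 to 220 bases is counted from the start used in the table, not from the end of that stretch. A match is a stretch of letters only, and its absence says nothing of the factor.
Endog promoter, GRCr8 chr3:33846685-33846934, plus strand: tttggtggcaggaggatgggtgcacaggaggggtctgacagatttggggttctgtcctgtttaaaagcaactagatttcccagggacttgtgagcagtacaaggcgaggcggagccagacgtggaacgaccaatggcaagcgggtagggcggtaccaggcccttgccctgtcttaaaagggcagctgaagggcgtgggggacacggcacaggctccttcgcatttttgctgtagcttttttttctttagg
Casp2 promoter, GRCr8 chr4:72116107-72116264, plus strand: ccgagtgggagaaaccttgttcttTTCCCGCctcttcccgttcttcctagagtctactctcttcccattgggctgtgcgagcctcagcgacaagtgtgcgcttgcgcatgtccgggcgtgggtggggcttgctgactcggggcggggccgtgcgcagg
Apaf1 promoter, GRCr8 chr7:27466773-27467022, minus strand: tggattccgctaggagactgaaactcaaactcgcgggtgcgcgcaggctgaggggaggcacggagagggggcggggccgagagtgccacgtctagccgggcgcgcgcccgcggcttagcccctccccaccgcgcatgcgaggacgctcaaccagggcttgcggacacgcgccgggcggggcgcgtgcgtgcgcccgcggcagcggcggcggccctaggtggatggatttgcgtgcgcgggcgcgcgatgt

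Arrays were comparable in their overall signal, with medians of 172.7 to 207.6. No probe set has E2f1 as its single symbol, so the virus was checked through Ccne1, the cyclin E1 gene, which had signals of 1550 to 3236 on the 6 E2F1 arrays and 141 to 332 on the 5 control virus arrays. Of 8 fibroblast markers 6 were above the array median on all 11 arrays, while Thy1 was on none and Pdgfra on 1. Of 17 measured markers of other cell types 11 were above it on no array, while Map2 was above it on all 11, Syp on 10, Myod1 on 8, Cd14 and Des on 7 each and Gfap on 1. Averaged over media, the fibroblast marker Pdgfrb fell with E2F1 (-1.90, limma adjusted p = 0.0109), and no other marker of that list passed. Of the markers of other cell types 3 rose, which were Map2 (0.82, adjusted p = 0.0324), Kdr (0.63, 0.013) and Tie1 (0.47, 0.0391), and 1 fell, Ptprc (-0.68, 0.0431). Kdr, Tie1 and Ptprc had signals of at most 54.0 on all 11 arrays. Summed fibroblast marker signals, most of which come from the collagens, Vim and Fn1, ran from 59685 to 78524 on E2F1 arrays and from 68838 to 90910 on control virus arrays. Those of the other cell types ran from 1768 to 4152 on E2F1 arrays and from 1648 to 3785 on control virus arrays, and the part of either list in the members' values was not tested. The excess of 3′ over 5′ control signal on the log2 scale, a sign of RNA quality, was 0.899 on the second E2F1 array with LY294002, 0.51 to 0.76 on the 3 deprived arrays and 0.122 to 0.331 on the other 7. The second E2F1 array with LY294002 thus stands apart from its pair, which read 0.264. In whole cultures, a change in the number of cells of one kind and a change in RNA per cell cannot be told apart.

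The transcripts of most of these genes showed no change with E2F1 that passed the test, with estimates from -0.71 for Casp6 to 0.28 for Casp8 beside the 0.44 of Endog on the log2 scale. Averaged over the 3 media, 1 of 11 member probe sets passed the test, that of Endog, which rose, and 0 fell. Over the whole array 16.5% of probe sets passed in this average, 9.23% higher and 7.25% lower, so the members' 9.09% is no result about them. At an unadjusted p under 0.05 the count was also 1 of 11, against 30.8% of all probe sets tested. The median log2 change of the 11 was 0.03, against -0.04 over all tested, and their median size regardless of sign was 0.12, against 0.24. The test was limma's moderated test on log2(signal + 16), fitted to all 11 arrays, with Benjamini-Hochberg adjustment over 15866 probe sets and a threshold of 0.05. Errors are standard errors (SE) of that fit, intervals are 95% intervals, and a fold is on the same scale.

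**Figure D1:**
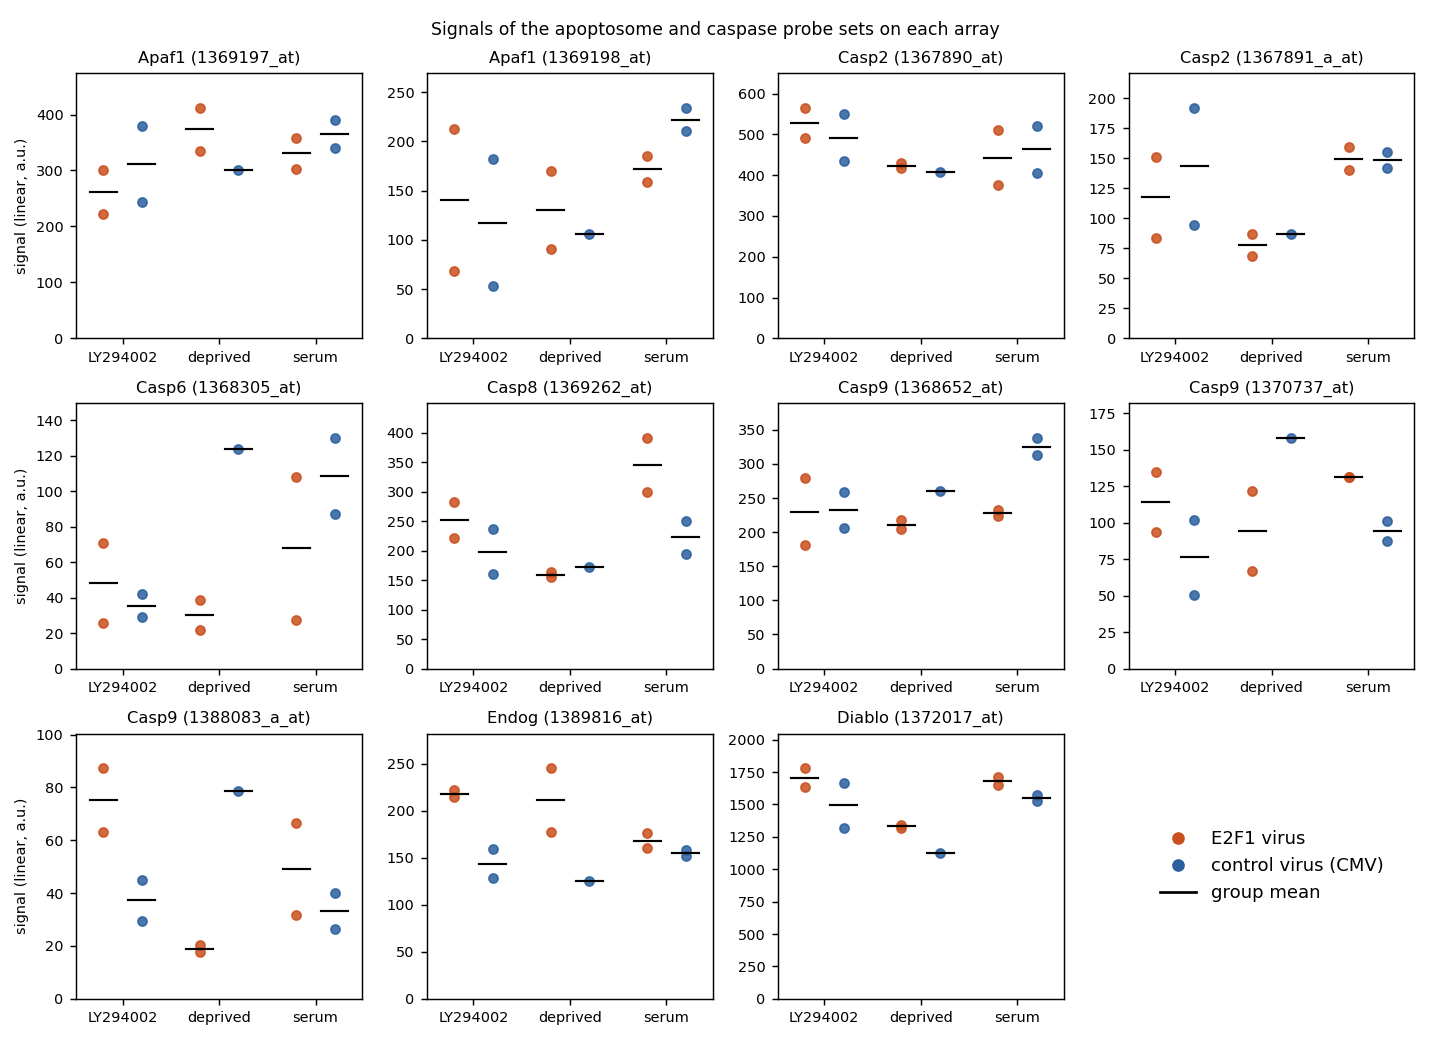
Linear array signal (arbitrary units) of each of the 11 member probe sets by medium (LY294002, deprived, serum), with E2F1 virus arrays left of control virus arrays; each point is 1 array and each bar a group mean. Endog on the 6 E2F1 arrays sits between 160 and 245, above all 5 control virus arrays, which sit between 125 and 159, while the groups overlap for the other probe sets taken over all media.

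Endog, the mitochondrial nuclease, had signals of 214 and 222 in E2F1 cells with LY294002, against 128 and 159 in control virus cells with LY294002. In deprivation the E2F1 arrays gave 177 and 245 and the control virus array 125. In serum the E2F1 arrays gave 160 and 176, against 158 and 152 with the control virus. All 6 E2F1 arrays were thus above all 5 control virus arrays, by a narrow margin in serum; such a separation was found for 9.64% of all probe sets in either direction and for 6.05% with E2F1 higher. Averaged over the media Endog rose 1.36-fold (log2 change 0.44 ± 0.12, SE, interval 0.16 to 0.73, limma adjusted p = 0.0441). By medium the changes were 0.56 ± 0.20 with LY294002 (limma adjusted p = 0.149), 0.67 ± 0.24 in deprivation (adjusted p = 0.171) and 0.11 ± 0.20 in serum (adjusted p = 0.856). None of these passed alone, and the differences of the effect from serum, 0.45 ± 0.28 with LY294002 (adjusted p = 0.845) and 0.56 ± 0.31 in deprivation (adjusted p = 0.591), did not pass either. The Endog call is marginal: 14 of 19 alternatives ended it while keeping the direction. It was lost without the second deprived E2F1 array (0.37, limma adjusted p = 0.101) and likewise when any one of 7 further arrays was dropped. The limma adjusted p was then 0.0854 or 0.0979 for the E2F1 pair in serum, 0.0975 or 0.0988 for the control virus pair in serum, 0.058 or 0.0717 for the E2F1 pair with LY294002 and 0.0807 for the first control virus array of that medium.

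Diablo, the antagonist of inhibitor of apoptosis proteins, was read by 1 probe set. Its signals were 1780 and 1634 in E2F1 cells with LY294002 and 1665 and 1322 in control virus cells with LY294002. Deprived E2F1 cells gave 1320 and 1341, against 1123 on the deprived control virus array, and E2F1 cells in serum gave 1710 and 1652, against 1527 and 1575 with the control virus. The E2F1 arrays lay above their control arrays in deprivation and in serum, and the pairs overlapped with LY294002. Such separations, in either direction, were found for 83.8% of all probe sets in deprivation and 54.9% in serum. The average change was 0.19 ± 0.11 (interval -0.06 to 0.43, limma adjusted p = 0.287), so it did not pass. Both deprived groups read lower than their serum groups, by value -0.33 ± 0.17 in E2F1 cells (adjusted p = 0.323) and -0.46 ± 0.21 in control virus cells (adjusted p = 0.374), neither of which passed.

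Apaf1, the apoptosome scaffold, was read by 2 probe sets. The brighter, 1369197_at, had signals of 301 and 222 in E2F1 cells with LY294002, against 379 and 244 with the control virus. In deprivation it read 412 and 335 with E2F1 and 301 with the control virus, and in serum 303 and 358 with E2F1 and 341 and 391 with the control virus. E2F1 and control arrays overlapped with LY294002 and in serum. The average change was -0.02 ± 0.16 (interval -0.39 to 0.34, limma adjusted p = 0.942). That interval leaves out a 2-fold change in either direction. The dimmer probe set, 1369198_at, ran from 68.2 to 213 over the E2F1 arrays and from 53.0 to 234 over the control virus arrays, with an average change of 0.04 ± 0.37 (adjusted p = 0.961). It was low on both second arrays with LY294002, at 68.2 for E2F1 and 53.0 for the control virus, while the first arrays of these groups read 213 and 182. The 3′ to 5′ differences of those second arrays were 0.899 and 0.331, and their part in the low Apaf1 reading was not tested.

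Casp9, the caspase that the apoptosome activates, was read by 3 probe sets, whose changes differed in sign and did not pass. The brightest, 1368652_at, had signals of 279 and 181 in E2F1 cells with LY294002, against 259 and 206 with the control virus, and 204 and 218 in deprived E2F1 cells, against 260 on the control virus array. In serum the E2F1 arrays read 233 and 223, below the control virus arrays at 338 and 313. Its changes were -0.49 ± 0.22 in serum (limma adjusted p = 0.344) and -0.27 ± 0.14 in the average (interval -0.59 to 0.05, adjusted p = 0.236), and neither passed. The second probe set, 1370737_at, read 131 on both E2F1 arrays in serum, above 87.6 and 101 with the control virus, but 122 and 66.6 in deprived E2F1 cells, below 158 on the control virus array. Its average change was 0.08 ± 0.21 (adjusted p = 0.842). In serum the 3 probe sets ran from -0.49 to 0.41, while in deprivation all 3 were below 0, from -1.44 to -0.28.

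The third Casp9 probe set, 1388083_a_at, was dim, with 5 of 11 readings below 32, or 2 times the offset, so the sizes of its log2 changes depend on the offset. It had signals of 63.0 and 87.3 in E2F1 cells with LY294002, against 29.4 and 45.1 with the control virus. Deprived E2F1 cells read 20.2 and 17.7, the lowest of the 11 arrays, and the deprived control virus array read 78.5. In serum the readings were 66.7 and 31.7 with E2F1 and 39.9 and 26.4 with the control virus. The change in deprivation was -1.44 ± 0.37 (unadjusted p = 0.00498, limma adjusted p = 0.0833), on 2 arrays against 1, and the change with LY294002 was 0.78 ± 0.30 (adjusted p = 0.189). The difference of the E2F1 effect between deprivation and serum was -1.80 ± 0.48 (unadjusted p = 0.00575, adjusted p = 0.38). None of these passed the adjusted test.

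Casp6, the executioner caspase of the list, was also dim. It read 70.9 and 25.7 in E2F1 cells with LY294002, against 42.0 and 29.1 with the control virus, and 38.6 and 21.5 in deprived E2F1 cells, against 124 on the control virus array. In serum the E2F1 arrays read 27.5 and 108 and the control virus arrays 130 and 87.3. The 2 E2F1 arrays in serum differed from each other by more than the mean difference between the groups. The average change was -0.71 ± 0.33 (interval -1.47 to 0.05, limma adjusted p = 0.189), and that in deprivation -1.63 ± 0.65 (adjusted p = 0.207). With readings as low as 21.5 the offset sets part of these sizes.

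Casp8, the death receptor initiator, had signals of 283 and 221 in E2F1 cells with LY294002 and 236 and 160 with the control virus. Deprived E2F1 cells read 163 and 155, and the deprived control virus array read 172. In serum the E2F1 arrays read 299 and 391, the highest values of the 11 arrays, against 251 and 195 with the control virus. By value Casp8 was higher with E2F1 in serum (0.59 ± 0.25, interval 0.02 to 1.17, unadjusted p = 0.0436, limma adjusted p = 0.307) and near 0 in deprivation (-0.10 ± 0.30, adjusted p = 0.886); tested directly, serum and deprivation did not differ past the threshold (-0.69 ± 0.39, adjusted p = 0.599). Averaged over media the change was 0.28 ± 0.15 (interval -0.08 to 0.63, adjusted p = 0.275).

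Casp2, the initiator whose promoter holds the E2F word shown above, had a bright probe set, 1367890_at, and a dimmer one, 1367891_a_at. The bright one read 565 and 490 in E2F1 cells with LY294002, against 550 and 434 with the control virus, 429 and 417 in deprived E2F1 cells, against 408, and 510 and 375 in E2F1 cells in serum, against 521 and 405. Arrays of both viruses overlapped in serum and with LY294002, and the average change was 0.03 ± 0.14 (interval -0.29 to 0.35, limma adjusted p = 0.922). For the dimmer probe set the average change was -0.12 ± 0.21 (interval -0.61 to 0.37, adjusted p = 0.761), with signals of 69.0 to 159 on E2F1 arrays and 87.0 to 192 on control virus arrays.

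**Figure D2:**
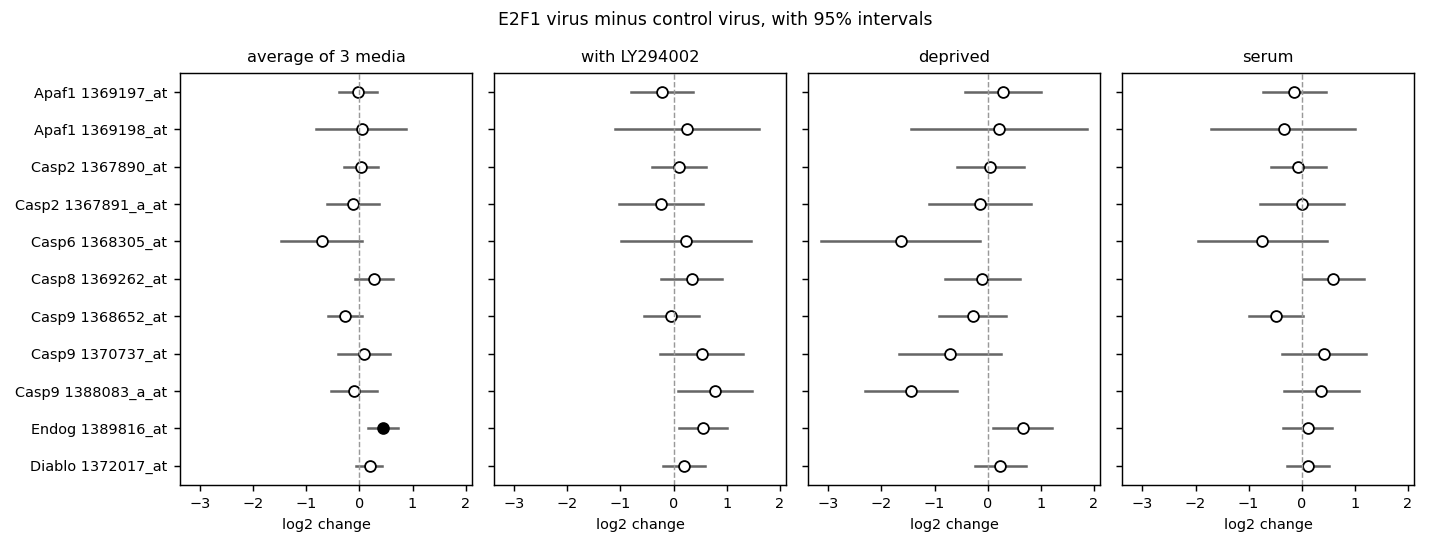
Log2 change of each member probe set, E2F1 virus minus control virus, averaged over 3 media and in each medium, with points for the estimate and lines for the 95% interval; a filled point passed the adjusted test. The only filled point is Endog in the average, at 0.44, and the widest spread in a single medium is in deprivation, from -1.63 for Casp6 to 0.67 for Endog.

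In the single media 0 of 11 member probe sets passed the adjusted limma test. Over the array 5.41% passed with LY294002, 2.87% in deprivation and 0.353% in serum. At an unadjusted p under 0.05 the member counts were 2 with LY294002 (21.5% of all probe sets), 3 in deprivation (20.8%) and 1 in serum (15.5%). Arrays of the viruses did not overlap for 2 of 11 member probe sets with LY294002, against 44.1% of all probe sets. The same held for 9 of 11 in deprivation, where 1 control array makes separation easy (83.8%), and for 6 of 11 in serum (54.9%). In tests of the difference between media 0 members passed for either difference, as did 0% of all probe sets. At an unadjusted p under 0.05 these differences gave 0 members for LY294002 minus serum, against 6.29% of all, and 1 member for deprivation minus serum, against 9.72%.

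The medium itself was set against serum within each virus. No member passed for LY294002 in E2F1 cells or in control virus cells, where 0% of the array passed, nor for deprivation in E2F1 cells (0.233% of the array) or in control virus cells (0.24%). At an unadjusted p under 0.05 the member counts were 0 for LY294002 in E2F1 cells (11.1% of all probe sets), 1 for LY294002 in control virus cells (6.62%), 3 for deprivation in E2F1 cells (19.6%) and 1 for deprivation in control virus cells (14.0%). Arrays did not overlap for 3 member probe sets with LY294002 in E2F1 cells (43.7% of all) and for 3 in control virus cells (37.5%). With deprivation the counts were 7 member probe sets in E2F1 cells (60.1%) and 9 in control virus cells (79.4%). Deprivation gave the members a median of -0.41 in E2F1 cells, against -0.10 over all probe sets, and of -0.27 in control virus cells, against 0.06. Centring each array on its median moved the value of every probe set by 0.11 for LY294002 or deprivation in E2F1 cells, and the members' median for deprivation in E2F1 cells was then -0.30, against 0.01 over all.

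Casp8 in E2F1 cells had the smallest p of the members under deprivation. Its signals were 163 and 155 in deprived E2F1 cells, against 299 and 391 in E2F1 cells in serum, a change of -1.03 ± 0.25 (interval -1.60 to -0.46, unadjusted p = 0.00321, limma adjusted p = 0.11). Of the alternatives, only array weights (limma adjusted p = 0.0285) and the omission of both second arrays with LY294002 led to a Casp8 call here. That omission was added after seeing the data, and no member was called for this comparison under the other alternatives. In control virus cells the Casp8 change was -0.34 ± 0.30 (adjusted p = 0.674). The dimmer Casp2 probe set stood at -0.82 ± 0.34 for deprivation in E2F1 cells (adjusted p = 0.241), with 87.1 and 69.0 in deprivation and 159 and 140 in serum, and at -0.67 ± 0.42 in control virus cells (adjusted p = 0.521). The 3 deprived arrays have larger 3′ to 5′ differences than the serum arrays, 0.51 to 0.76 against 0.122 to 0.189, and the part of RNA quality in these values was not tested. With LY294002 in control virus cells, Casp6 read 42.0 and 29.1, against 130 and 87.3 in serum, a change of -1.26 ± 0.53 (adjusted p = 0.742).

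**Figure D3:**
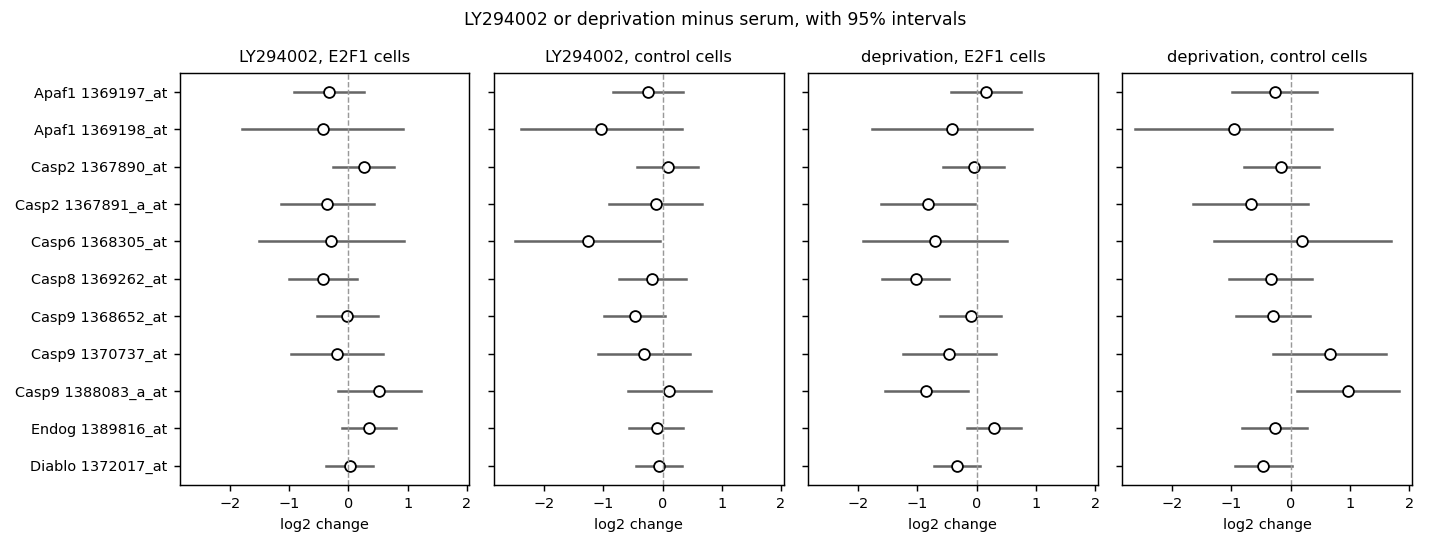
Log2 change of each member probe set with LY294002 or deprivation, minus serum, in E2F1 and in control virus cells, with 95% intervals; filled points would mark a passed test. No point is filled, and the Casp8 interval for deprivation in E2F1 cells, -1.60 to -0.46, is below 0. So are those of the dimmer Casp2 (-1.61 to -0.03) and the dim Casp9 probe set (-1.55 to -0.14) for deprivation in E2F1 cells and of Casp6 for LY294002 in control virus cells (-2.48 to -0.04), while that of the dim Casp9 probe set for deprivation in control virus cells (0.10 to 1.82) is above 0.

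In the order of the groups by mean log2 signal, E2F1 with LY294002 was first and E2F1 deprived next for Endog, at 7.87 and 7.81, and these neighbours overlapped. All 3 E2F1 groups of Endog came before the control virus groups, of which the deprived one was last at 7.14. For Casp8 E2F1 in serum was first (8.48), apart from the next group, and E2F1 deprived last (7.45). Casp9 read by 1368652_at put control virus in serum first (8.42), then control virus deprived (8.11), and its lower 4 groups, from 7.95 to 7.83, each overlapped their neighbours. For Casp6 control virus deprived was first (7.13), control virus in serum next (6.94) and E2F1 deprived last, and every pair of neighbours overlapped. The brighter Apaf1 probe set likewise overlapped at every step between 8.60 and 8.10. For Diablo the deprived control virus array was last (10.15), apart from deprived E2F1 cells (10.40).

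Casp6 and Casp8 had the widest range of group means among the 7 genes by their brightest probe sets, 1.63 and 1.03 on the log2 scale. Across the 11 arrays, and among 5982 genes whose mean log2 signal is above the median of all probe sets, the genes most like Casp6 were Srpra (Pearson r = 0.896), a subunit of the signal recognition particle receptor, Acp6 (0.864), an acid phosphatase, and Ecd (0.859). Those most like Casp8 were Xpnpep1 (0.893), an aminopeptidase, Akirin2 (0.888) and Ptpn12 (0.882), a tyrosine phosphatase. These are descriptions over arrays that share virus, medium and RNA quality, and the best of many genes is high by selection.

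Around the members, 46 further genes of the pathway were listed in 5 lists, of which 32 were measured. With E2F1, averaged over media, 2 rose and 3 fell, 15.6% of them against 16.5% of the array, with a median of -0.09. Of 8 caspase inhibitors and apoptosome modulators 1 rose and 1 fell. Birc5, which encodes survivin, an inhibitor of apoptosis protein that also works in mitosis, had signals of 476 to 990 (median 669) on E2F1 arrays and of 142 to 435 (median 196) on control virus arrays. It rose 3.09-fold (1.63 ± 0.27, limma adjusted p = 0.00642). Nol3, a caspase recruitment domain protein that represses apoptosis, had 614 to 1518 (median 1149) with E2F1 and 1577 to 2771 (median 2422) with the control virus. It fell (-1.05 ± 0.13, limma adjusted p = 0.0025). The viruses did not overlap for Nol3, and the same held for Birc5 and, below, for Lmnb1, Gsn and Tnfrsf1a. Over the array this was so for 9.64% of probe sets.

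Of 10 caspase substrates and nucleases 1 rose and 1 fell. Lmnb1, lamin B1 of the nuclear envelope, had signals of 1646 to 2477 (median 1916) on E2F1 arrays and 262 to 866 (median 455) on control virus arrays, and rose 4.68-fold (2.22 ± 0.20, limma adjusted p = 0.000908). Of its other probe sets one passed at 2.15 (adjusted p = 0.00195) and one did not at 1.32 (adjusted p = 0.0706). Gsn, the actin-severing gelsolin, fell (-0.50 ± 0.11, adjusted p = 0.0219), with 1997 to 3377 (median 2956) against 3417 to 4502 (median 3964). Its call was lost without either deprived E2F1 array, either control virus array in serum or the first E2F1 array in serum (adjusted p up to 0.0693). Parp1, the best known caspase substrate, stood at -0.22 ± 0.12 (adjusted p = 0.274), and the caspase-activated nuclease Dffb at -0.40 ± 0.17 (adjusted p = 0.15).

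Among 8 death receptors and adaptors 1 fell, and 0 rose. Tnfrsf1a, the main receptor of tumour necrosis factor, read 889 to 1213 (median 1010) on E2F1 arrays and 1255 to 2001 (median 1674) on control virus arrays, and fell (-0.60 ± 0.11, limma adjusted p = 0.0111). None of 3 other caspases passed. Casp1 was at -0.37 ± 0.19 (adjusted p = 0.235) and Casp4 at -0.14 ± 0.18 (adjusted p = 0.676), the smallest p-values of that list. None of 3 mitochondrial release factors passed either, with the protease Htra2 at -0.25 ± 0.13 (adjusted p = 0.231) and Aifm2 at -0.60 ± 0.32 (adjusted p = 0.246). Over these 2 lists 0 genes had an unadjusted p under 0.05, against 30.8% of all probe sets tested.

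By medium, 5 of the 32 genes passed with LY294002 (3 rose and 2 fell), 2 in deprivation (1 rose and 1 fell) and 0 in serum, where 7 had an unadjusted p under 0.05. Over the array 5.41% passed with LY294002, 2.87% in deprivation and 0.353% in serum, where 15.5% had an unadjusted p under 0.05. The lists were chosen with earlier results of these data known, so these shares are no test of the pathway. With LY294002 Traf2, an adaptor of tumour necrosis factor receptors, read 86.1 and 125 in E2F1 cells, against 21.2 and 11.1, near the offset, in control virus cells (1.92 ± 0.25, limma adjusted p = 0.0118). Over the alternatives this change ran from 1.07 to 2.67. In serum its signals were 53.0 and 43.2 with E2F1 and 72.9 and 82.4 with the control virus (-0.55 ± 0.25, adjusted p = 0.344); the direct test of LY294002 minus serum did not pass (2.46 ± 0.35, unadjusted p = 0.000122, adjusted p = 0.255). Lmnb1 also rose with LY294002 (2.47 ± 0.32, limma adjusted p = 0.0117). The LY294002 calls of Traf2 and Lmnb1 were lost with array weights, with the compared groups alone and without both second arrays with LY294002. In deprivation Lmnb1 rose as well (2.71 ± 0.39, limma adjusted p = 0.0224). This call was lost with the compared groups alone and without either deprived E2F1 array. Nol3 (-0.96 ± 0.21, adjusted p = 0.0405), Birc5 (1.86 ± 0.43, adjusted p = 0.0488) and Gsn (-0.92 ± 0.18, adjusted p = 0.0326) passed with LY294002, and Nol3 in deprivation (-1.28 ± 0.25, adjusted p = 0.0444). Most alternatives ended the LY294002 calls of these 3, which held in 6, 8 and 7 of 21, and the Nol3 call in deprivation held in 10 of 20.

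**Figure D4:**
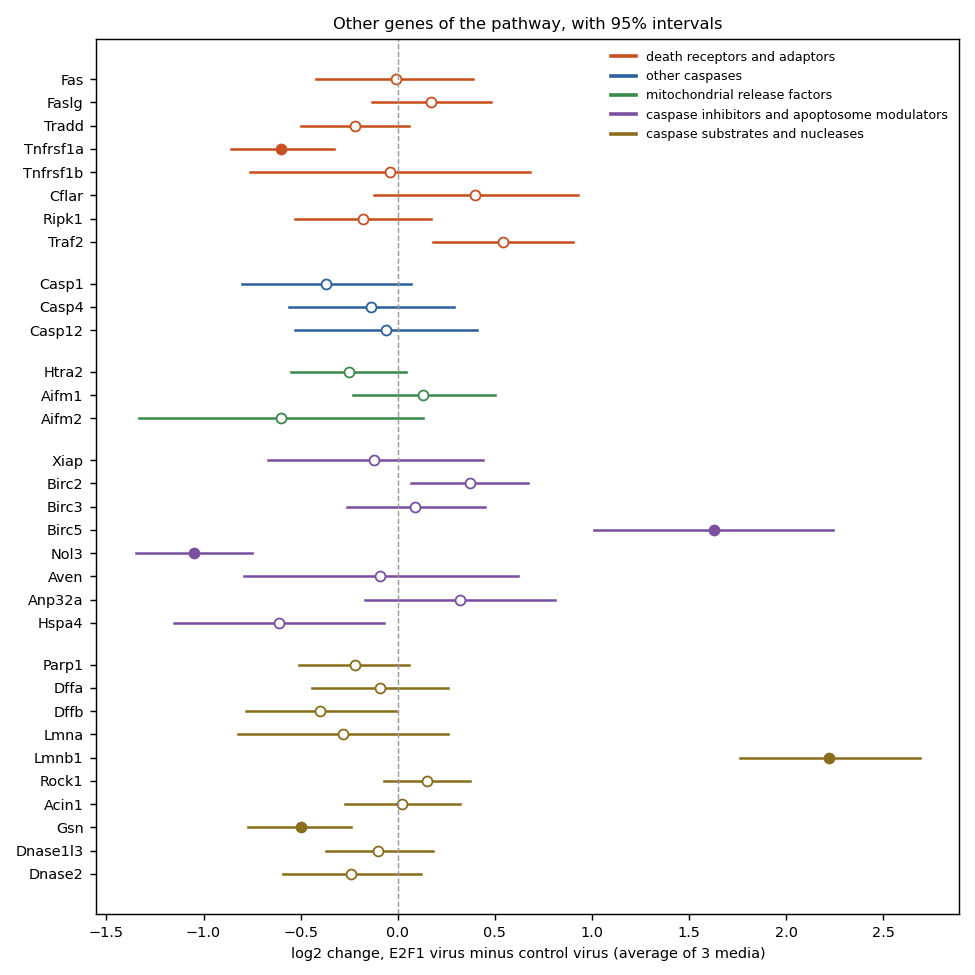
Log2 change with E2F1, averaged over 3 media, of the 32 measured genes of the 5 pathway lists, with 95% intervals; colours give the list and filled points passed the adjusted test. Filled points are Birc5 and Lmnb1 above 0 and Nol3, Tnfrsf1a and Gsn below 0, with the other 27 open.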

How the data were processed

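RNA of REF52 cells, 6 µg per labelling, was hybridised to 11 Affymetrix rat arrays. The authors deposited linear signal intensity values, 1 per probe set and array; MAS5 and RMA are named per the submitters' processing notes, without a role or version. Per the deposited values, the mean after trimming 2% at each end is 500 on every array. No detection calls were used, and precision is limited by how few arrays there are.

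Of 15923 probe sets, 57 controls were left out and 15866 tested; 12783 have 1 symbol, 312 several and 2771 none. Signals were taken as log2(signal + 16) without further scaling, since array medians spanned 0.25. Limma 3.58.1 in R 4.3.3 fitted 1 mean for each of 6 groups (lmFit, eBayes without trend; 5 residual and 2.88 prior degrees of freedom), with the single deprived control virus array taken to have the same spread. Benjamini-Hochberg adjustment was applied to each of 10 comparisons on its own. In simulated data for the average over media, 64% of 2-fold and 97% of 4-fold changes were recovered. Few of the 15866 simulated probe sets were changed, and noise was of the same size on every array. In the data 16.5% of probe sets were called and array weights ran from 0.553 to 1.601, so these percentages are not the power reached here.

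Probe sets were named when their single symbol is a member; each pathway gene is represented by its brightest probe set and named when called, or by the 2 smallest p where its list had no call. Parp1 and Dffb were picked after their values were seen. The members and lists were chosen with earlier results of these data known. Alternatives were quantile normalization, median centring, offsets of 1 and 64, array weights, leaving out the dimmest 30%, a trended and robust eBayes, the compared groups alone, a replicate block and each array left out in turn; leaving out both second arrays with LY294002 was added after seeing the data.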

Additional observations from a re-analysis of the deposited data

Results flagged for a closer look

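Some members moved in opposite directions by value, with every array of a comparison on one side, and were picked out for that. With 2 arrays against 2, or 2 against 1, such separations are common: arrays did not overlap for 54.9% of all probe sets in serum, 44.1% with LY294002 and 83.8% in deprivation. The deprived control virus cells have 1 array, and all of these patterns rest on that array.

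For Casp8 the E2F1 effect was 0.59 in serum and -0.10 in deprivation; the limma test of the difference gave -0.69 ± 0.39 (adjusted p = 0.599). The second Casp9 probe set, 1370737_at, had 0.41 in serum and -0.70 in deprivation, and deprivation moved it by -0.46 in E2F1 cells and 0.66 in control virus cells; the difference, -1.11 ± 0.53 either way, did not pass (limma adjusted p = 0.545). The dim Casp9 probe set, 1388083_a_at, had an E2F1 effect of 0.78 with LY294002 and -1.44 in deprivation, a difference that was not tested. Deprivation moved the same probe set by -0.85 in E2F1 cells and 0.96 in control virus cells, and the limma test of that difference gave -1.80 ± 0.48 (adjusted p = 0.38). For Endog, deprivation gave 0.29 in E2F1 cells and -0.27 in control virus cells, with a difference of 0.56 ± 0.31 (limma adjusted p = 0.591).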

How the results depend on the processing

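Of the 10 counts of members called, 7 were 0 under all alternatives run. For E2F1 averaged over media the count of 1 (Endog) became 0 with quantile normalization, median centring, an offset of 1, array weights, the replicate block and without both second arrays with LY294002, and ran from 0 to 1 when 1 array was left out; the cause was not tested. With array weights the count was 1 in place of 0 for E2F1 in deprivation (the dim Casp9 probe set, -1.44, limma adjusted p = 0.0463) and for deprivation in E2F1 cells (Casp8, -1.03, limma adjusted p = 0.0285). Calls over the whole array went from 456 to 1223 and from 37 to 1173 in these 2 comparisons. Without both second arrays with LY294002, Casp8 (-1.03) and the dimmer Casp2 probe set (-0.82) were called for deprivation in E2F1 cells. Calls over the whole array rose there too, and the arrays left out are not part of that comparison. Endog kept its direction throughout, between 0.35 and 0.52, with limma adjusted p from 0.0267 to 0.101.

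Among the members' E2F1 changes averaged over media, signs turned for 6 probe sets, none of which had passed. For the brighter Apaf1 probe set the replicate block gave 0.00 and leaving out 1 array -0.13 to 0.08; for the brighter Casp2 probe set quantile normalization gave -0.00 and leaving out 1 array -0.04 to 0.10. With 1 array left out, the dimmer Apaf1 probe set ran from -0.21 to 0.29, the dimmer Casp2 from -0.27 to 0.03, Casp9 1370737_at from -0.06 to 0.22 (-0.13 without both second arrays with LY294002) and the dim Casp9 from -0.23 to 0.04. The average over media could not be computed without the deprived control virus array, and the fit of compared groups alone could not differ for it. Birc5, Nol3, Lmnb1 and Tnfrsf1a kept their calls in the average under all 19 alternatives.

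The labels do not say if array numbers pair the samples, and a shared effect of the number within a medium was not tested. Correlations of the differences between first and second arrays ran from -0.0223 to 0.301 over 10 pairs of groups, and 5 were above 0. The highest is that of the E2F1 and control virus groups with LY294002, and the next is 0.0653. The replicate block gave 2459 calls in the average in place of 2615, and 0 members in place of 1. This array-wide count moved both ways: an offset of 1 gave 2217 calls and an offset of 64 gave 3078. Leaving out the first E2F1 array with LY294002 also raised it. Over all probe sets the average gave 1540 calls when the first deprived E2F1 array was dropped; dropping the first serum array of the control virus gave 1593, and that of E2F1 1669. Counts in single comparisons moved further: from 0 to 522 around 56 in serum, from 0 to 1311 around 858 with LY294002, from 0 to 1223 around 456 in deprivation, from 0 to 1173 around 37 for deprivation in E2F1 cells and from 0 to 189 around 38 in control virus cells. For LY294002 against serum, leaving out 1 array gave up to 325 calls in E2F1 cells and 10 in control virus cells, in place of 0.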
